A study of Mus musculus with 6 samples.

Results

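The integrated stress response transcription arm was described through 10 genes, Atf4, Atf3, Atf5, Ddit3, Trib3, Chac1, Ppp1r15a, Ppp1r15b, Eif2ak3 and Cebpb, taken by gene symbol from a table of 18908 gene IDs. All 10 had a row and passed the filter on low counts, as did 14641 genes in all. The table held RNA-seq counts of 6 mouse libraries, 3 given a control shRNA (genotype WT in the labels) and 3 given an shRNA against VprBP, the older name of Dcaf1 (genotype VprBP1 Knockdown). A short hairpin RNA (shRNA) is processed to a small RNA that silences a matching mRNA. The labels call all 6 libraries bone marrow-derived macrophages (BMDM). No treatment, time point or animal age is given, and the labels do not say that libraries of 1 group are separate cultures or mice, so each p-value speaks only of how these libraries vary, which may be technical spread.

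In the integrated stress response, kinases that sense different stresses phosphorylate the initiation factor eIF2. PERK, encoded by Eif2ak3, senses unfolded protein in the endoplasmic reticulum. General translation then falls while the mRNA of Atf4 is translated more, and ATF4 activates genes of amino acid supply together with further transcription factors, among them ATF3 and CHOP, the product of Ddit3. Ppp1r15a encodes GADD34, the inducible phosphatase subunit that removes the phosphate from eIF2 and so closes the loop. Because much of the control of ATF4 and ATF5 is at translation, their mRNA levels do not report the amount of protein.

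Total counts per library ranged from 16839445 to 21838875, and levels are given as CPM, which sets each count against the library total after TMM scaling. The labels could be checked only in part. Dcaf1 stood at 42.2, 43.5 and 40.7 CPM under the control label against 36.0, 34.6 and 36.8 CPM under the VprBP label, 84.9% of the control level (95% interval 76.5% to 94.2%, edgeR adjusted p = 0.00625). The exact permutation test on these 6 values gave p = 0.1, the smallest that 3 against 3 allow, and without TMM factors the edgeR call was lost (adjusted p = 0.137). Its exons share 146 bases with those of Manf on the opposite strand, a secreted stress protein measured at 1363 and 139 CPM on average, and 75 bases with those of Rbm15b, and whether reads of either entered the Dcaf1 counts was not tested. Of 20 macrophage markers 15 have no row in the table used here, Csf1r, Adgre1 and Spi1 among them, and the other 5 summed to 37.3 to 40.5 CPM under the control label and to 20.2 to 21.1 CPM otherwise. That drop in the sum was Cd68 (31.6 and 1.01 CPM). Lyz2, Mertk and Laptm5 were higher under the VprBP label, by log2 differences of 1.25, 1.32 and 3.61, and Cd14 was not called. Laptm5 rested on 3 to 5 counts per control-labelled library and Lyz2 on 13 to 24. The 10 pigment cell markers, by contrast, summed to 21123 to 21505 CPM and 19666 to 20176 CPM in the same order, so the labelled cell type was not borne out by its markers. Within that near-level sum, 5 pigment markers were higher, 4 lower and 1 not called. Over all tested genes 37.9% were higher and 37.0% lower. Of the 5, Tyrp1 was higher by only 1.06-fold (edgeR adjusted p = 0.0462). Under upper quartile scaling, and under TMM scaling without mitochondrially encoded genes, 4 markers were higher. Tyr rose 3.79-fold, Sox10 3.51-fold and Mitf 3.44-fold, while Gpr143 fell 4.29-fold, Slc45a2 3.81-fold and Pmel 2.78-fold. Their part in the results on the 10 genes was not tested. The groups are therefore called by their labels, and no direction is ascribed to loss of VprBP. In bulk RNA, fewer cells of a type and less RNA per cell cannot be told apart.

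Under the VprBP label 9 of the 10 genes were lower and none was higher. The steepest falls were those of Atf3, Ppp1r15a, Ddit3 and Chac1, and the smallest among the 9 were those of Eif2ak3, Trib3 and Ppp1r15b. Atf5 was the single gene that did not pass the test. Lower levels were common in this comparison: 75.0% of all tested genes were called at an adjusted p below 0.05, with 37.0% of all tested genes lower and 37.9% higher. Of the 10 genes, 6 had a log2 difference of -1 or lower, against 14.2% of all tested genes. The median log2 difference was -1.45 over the 10 genes and -0.0119 over all tested genes. For 9 of the 10 the groups did not overlap, as for 77.2% of all tested genes.

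**Figure D1:**
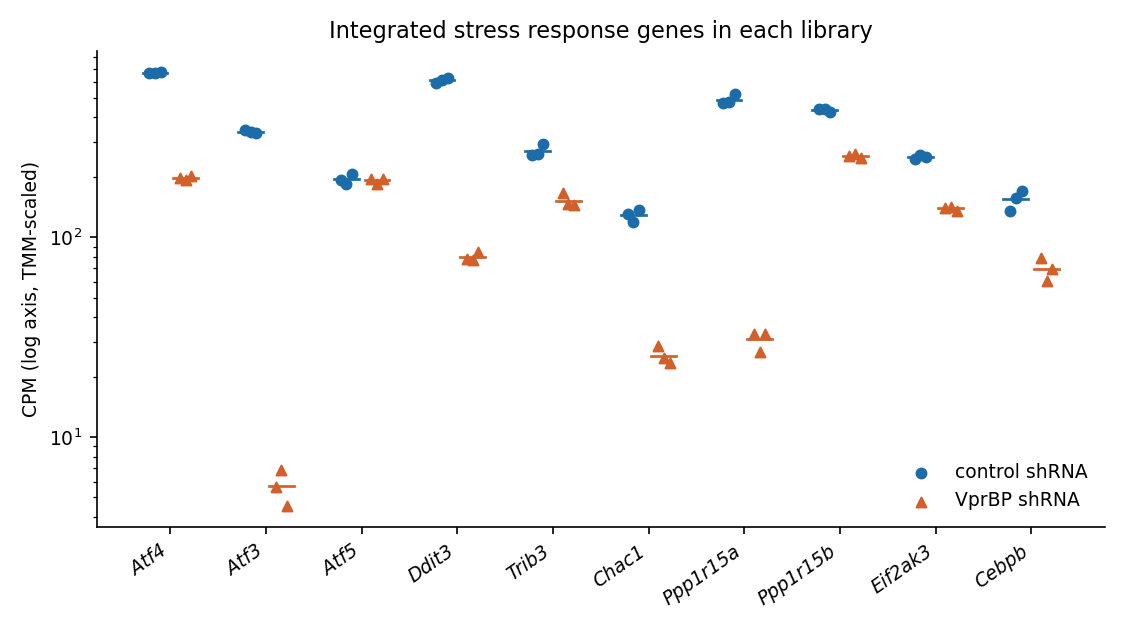
CPM on a log axis for the 10 genes, with 1 point per library (circles, 3 control-labelled libraries; triangles, 3 VprBP-labelled libraries) and a line at each group's mean. The groups are apart for every gene except Atf5, and the gap is widest for Atf3, at 338 and 5.69 CPM.

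Factors of this arm can bind upstream of a gene, and sites beyond the windows matched here were not searched. The stretches upstream of the 4 genes that fell most are shown. Each holds the 250 bases before the RefSeq start (build GRCm38.p6), 5′ to 3′ on the strand of the gene. RefSeq windows of 300 bases, from 250 before to 50 after the start, were matched for 9 of the genes, Atf5 with 2 windows, and Ppp1r15b had no entry. Capitals mark matches, on either strand, to a CARE (the C/EBP-ATF response element, searched as TGATGNAAN), a CRE (the cAMP response element, TGACGTCA) or an AP-1 element (TGANTCA). The stretch of Atf3 lies before the RefSeq start used here and within the longer span that GENCODE gives the gene. The lone match of Trib3 lay 13 bases after the start and is shown in 28 bases.
Atf3 (chr1:191183334-191183583, minus strand): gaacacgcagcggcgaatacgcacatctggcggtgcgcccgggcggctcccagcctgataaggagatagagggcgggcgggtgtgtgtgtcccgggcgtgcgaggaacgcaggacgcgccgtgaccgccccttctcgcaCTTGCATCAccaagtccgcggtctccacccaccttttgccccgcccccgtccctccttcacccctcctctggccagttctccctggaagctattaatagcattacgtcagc
Ppp1r15a (chr7:45526269-45526518, minus strand): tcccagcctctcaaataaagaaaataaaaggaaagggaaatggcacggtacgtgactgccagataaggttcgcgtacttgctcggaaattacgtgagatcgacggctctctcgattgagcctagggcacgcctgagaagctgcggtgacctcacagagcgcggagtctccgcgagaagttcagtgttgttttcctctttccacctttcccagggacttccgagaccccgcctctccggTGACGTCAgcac
Ddit3 (chr10:127290543-127290792, plus strand): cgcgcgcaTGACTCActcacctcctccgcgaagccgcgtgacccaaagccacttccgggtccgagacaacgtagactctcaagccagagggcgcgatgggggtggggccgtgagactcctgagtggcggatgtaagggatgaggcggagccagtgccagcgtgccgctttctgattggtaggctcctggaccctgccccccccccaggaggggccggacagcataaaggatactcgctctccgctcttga
Chac1 (chr2:119350992-119351241, plus strand): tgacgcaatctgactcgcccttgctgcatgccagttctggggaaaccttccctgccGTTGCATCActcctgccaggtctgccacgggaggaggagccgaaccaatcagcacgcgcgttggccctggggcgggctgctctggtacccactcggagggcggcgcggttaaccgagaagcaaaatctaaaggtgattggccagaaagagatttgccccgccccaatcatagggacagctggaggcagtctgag
Trib3 (chr2:152344029-152344056, minus strand): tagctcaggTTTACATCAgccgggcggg

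The capitals in Atf3, Chac1 and Trib3 are CARE matches on the opposite strand, in Atf3 from 111 and in Chac1 from 194 bases before the start. Those in Ppp1r15a are a CRE from 12 bases before the start, and those in Ddit3 are an AP-1 match from 242 bases before it. Eif2ak3 held an AP-1 match as well, while the windows of Atf4, Atf5 and Cebpb held none of these letters. No match overlapped another. A CARE was thus found in 3 of 9 genes and in 3.95% of 32851 windows of the same length, a CRE in 1 of 9 genes and 1.79% of windows, and an AP-1 match in 2 of 9 genes and 7.81% of windows. The 3 genes with a CARE match differed widely in their change, at 59.5-fold, 5.05-fold and 1.77-fold lower for Atf3, Chac1 and Trib3. A match is a run of letters and not evidence of binding, and a site outside the window would be missed.

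Among the sensors, Eif2ak3, the gene of PERK (chromosome 6, 70844515 to 70905245 on GRCm38), stood at 246, 259 and 252 CPM under the control label against 141, 142 and 136 CPM under the VprBP label. All VprBP-labelled values lay below all control-labelled ones, and the spread within each group was narrow. The fall was 1.81-fold (log2 difference -0.85, SE 0.045, adjusted p = 7.50e-12). Gm43292, an unverified transcript on the opposite strand, shares 485 of its 6026 exonic bases.

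The central factor Atf4 (chromosome 15, 80255184 to 80257541) was measured at 663, 669 and 670 CPM under the control label against 198, 194 and 202 CPM under the VprBP label. The groups were far apart and the spread was small, with SDs of 3.49 and 4.13 CPM. Atf4 mRNA fell 3.37-fold (log2 difference -1.75, SE 0.040, adjusted p = 6.47e-17). A larger fall was seen for 716 of the tested genes, or 4.89%.

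Atf5, a close relative of Atf4 whose protein is likewise made more under eIF2 phosphorylation (chromosome 7, 44812256 to 44816658), stood at 193, 186 and 208 CPM under the control label against 197, 186 and 197 CPM under the VprBP label. The groups overlapped, and replicate 2 was the lowest library under both labels. Its log2 difference of -0.02 (SE 0.050, adjusted p = 0.792) had a 95% interval of -0.12 to 0.09. That interval places the VprBP-labelled level between 91.9% and 107% of the control-labelled level. Its sign was not fixed: without TMM factors the difference was 0.10, and it was 0.02 without control replicate 3 or without VprBP replicate 2. Atf5 shares 82 exonic bases with Nup62 and 82 with Il4i1, both on the opposite strand. Nup62 stood at 56 and 39.2 CPM on average and was lower, and Il4i1 stood at 3.16 and 4.35 CPM and was not called.

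Atf3, an inducible factor that can repress as well as activate (chromosome 1, 191170296 to 191218039), showed the widest gap. It was measured at 345, 336 and 334 CPM under the control label against 5.66, 6.86 and 4.54 CPM under the VprBP label. Those low values rest on 105, 127 and 87 counts, well above the level of 0.137 to 0.178 CPM that a count of 0 would allow at these depths (3 counts, for counting error only). Atf3 fell 59.5-fold (log2 difference -5.90, SE 0.084, adjusted p = 1.57e-19), and 21 of 14641 genes fell by more.

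Ddit3, the gene of the death-associated factor CHOP (chromosome 10, 127290774 to 127296288), stood at 595, 615 and 628 CPM under the control label against 78.2, 77.4 and 84.6 CPM. Every control-labelled value lay far above the 3 others. Its fall was 7.65-fold (log2 difference -2.93, SE 0.049, adjusted p = 9.67e-19). Ddit3 shares 68 exonic bases with Mars on the opposite strand, a tRNA synthetase gene that was higher, at 103 and 167 CPM on average. Ddit3 also shares 13 bases with Gm4189 on the opposite strand, at 0.494 and 0.709 CPM. Another annotated gene of the same symbol, which has no row, shares 105 bases.

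Cebpb, which encodes a C/EBP factor that CHOP can pair with and that is prominent in myeloid cells (chromosome 2, 167688915 to 167690418), was measured at 136, 158 and 171 CPM and at 78.9, 60.4 and 69.4 CPM. It had wide relative spread, yet its lowest control-labelled value was still above its highest VprBP-labelled one. The fall was 2.22-fold (log2 difference -1.15, SE 0.086, adjusted p = 9.20e-10). Cebpb shares 312 exonic bases with Tmem189 on the opposite strand, at 136 and 130 CPM on average, and without a stated strand setting reads of the pair cannot be told apart there.

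Of the effector genes, Trib3, which encodes a pseudokinase that binds AKT and ATF4 (chromosome 2, 152337422 to 152344032), stood at 259, 262 and 293 CPM under the control label against 167, 147 and 145 CPM under the VprBP label. The groups were apart, but Trib3 fell only 1.77-fold (log2 difference -0.83, SE 0.060, adjusted p = 6.16e-10). Chac1, an enzyme that breaks down glutathione (chromosome 2, 119351229 to 119354381), was measured at 131, 120 and 137 CPM and at 28.7, 24.8 and 23.4 CPM. Its fall of 5.05-fold (log2 difference -2.34, SE 0.077, adjusted p = 7.45e-15) was exceeded by 2.47% of tested genes.

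The phosphatase subunits that reverse eIF2 phosphorylation moved by unequal amounts. Ppp1r15a, the stress-induced subunit (chromosome 7, 45522916 to 45526268), stood at 470, 476 and 521 CPM under the control label against 33.0, 26.6 and 33.0 CPM under the VprBP label. It fell 15.8-fold (log2 difference -3.98, SE 0.071, adjusted p = 2.22e-18). Its exons share 12 bases with those of Tulp2 on the opposite strand, at 0.54 and 1.21 CPM on average. Ppp1r15b, the constitutive subunit (chromosome 1, 133131143 to 133139783), was measured at 438, 441 and 424 CPM and at 256, 263 and 249 CPM. This smaller fall was 1.70-fold (log2 difference -0.76, SE 0.042, adjusted p = 1.15e-11), the least of the 9 that passed. Gm26616, an unverified transcript on the opposite strand, shares 640 of the 5594 exonic bases of Ppp1r15b.

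**Figure D2:**
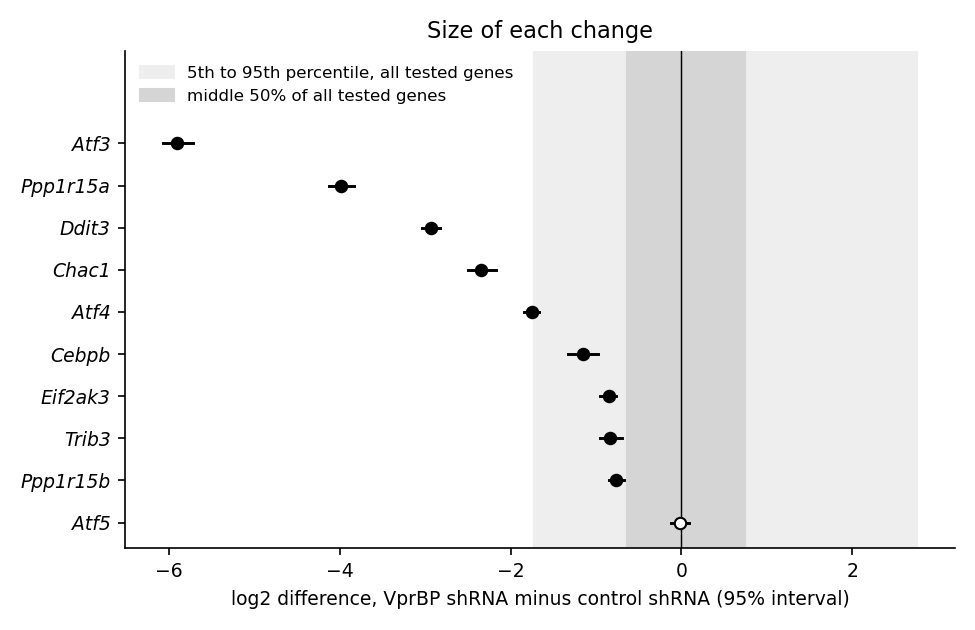
Log2 difference (VprBP-labelled minus control-labelled) of each gene with its 95% interval, filled where called and open where not, over bands of the 5th to 95th and 25th to 75th percentiles of all tested genes. Atf3, Ppp1r15a, Ddit3, Chac1 and, just past the edge at -1.73, Atf4 lie below the 5th percentile, and Atf5 sits at -0.02.

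Ratios of counts within a library do not depend on the scaling between libraries, and they showed the same unequal changes. The ratio of Ppp1r15a to Ppp1r15b was 1.07, 1.08 and 1.23 under the control label against 0.129, 0.101 and 0.132 under the VprBP label. Ddit3 per count of Atf4 was 0.896, 0.920 and 0.939 against 0.395, 0.400 and 0.419. Atf3 per count of Atf4 was 0.519, 0.502 and 0.499 against 0.0286, 0.0354 and 0.0225, while Trib3 per count of Ddit3 went up, from 0.436, 0.426 and 0.466 to 2.13, 1.90 and 1.72. None of these 4 ratios overlapped between the labels, as was true of 77.2% of all tested genes taken singly. On the log2 scale they differed by -3.23, -1.18, -4.16 and 2.11, against SDs between libraries of 0.17, 0.04, 0.23 and 0.12. The two-sided exact permutation test gave p = 0.1 for each (0.1 after Benjamini-Hochberg adjustment over the 4), the smallest that 3 against 3 libraries allow. These pairs were picked with the changes of their genes known, so their separation is not further evidence.

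The order of the levels differed between the labels. Levels between genes are compared here as CPM per kb of merged exons, on GENCODE M21. In the control-labelled libraries Ddit3 was the most abundant at 358 ± 9.99 CPM per kb, followed by Atf4 at 283 ± 1.48, Ppp1r15a at 166 ± 9.64, Atf3 at 157 ± 2.58 and Trib3 at 128 ± 8.90 CPM per kb (SD, n = 3). Cebpb (103 ± 11.4), Atf5 (98.2 ± 5.52), Chac1 (79.0 ± 5.42), Ppp1r15b (77.6 ± 1.62) and Eif2ak3 (41.9 ± 1.08 CPM per kb) came after them. Neighbours whose libraries overlapped were Ppp1r15a with Atf3, Cebpb with Atf5, and Chac1 with Ppp1r15b. In the VprBP-labelled libraries Atf5 led at 97.1 ± 3.26 CPM per kb, then Atf4 at 83.9 ± 1.75 and Trib3 at 72.0 ± 5.67 CPM per kb. Ddit3 (46.8 ± 2.30), Cebpb (46.3 ± 6.17) and Ppp1r15b (45.8 ± 1.21 CPM per kb) followed, and in this trio neighbours overlapped. The last places went to Eif2ak3 at 23.2 ± 0.511, Chac1 at 15.6 ± 1.68, Ppp1r15a at 10.5 ± 1.25 and Atf3 at 2.64 ± 0.539 CPM per kb. As a share of the 10 genes' summed level per kb, Atf5 held 6.32% to 6.77% under the control label against 21.5% to 22.3% under the VprBP label, Ddit3 23.8% to 24.3% and 9.92% to 11.1%, whereas Atf4 held 18.4% to 19.3% and 18.3% to 19.3%.

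**Figure D3:**
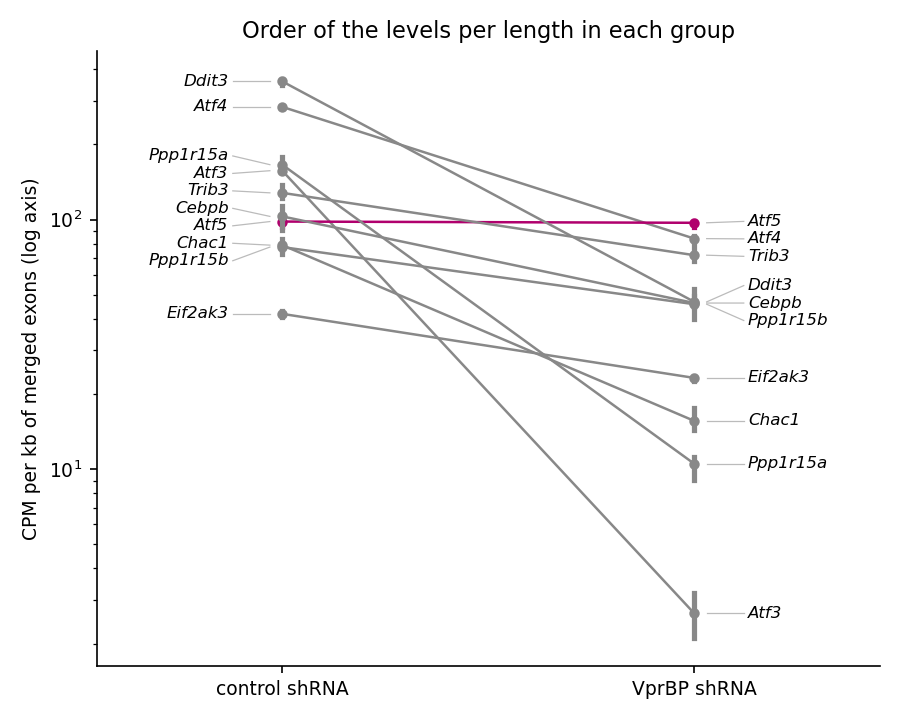
Mean level per length (CPM per kb of merged exons, log axis) of each gene in each labelled group, with bars over the range of the 3 libraries. Atf5, in colour, goes from rank 7 to rank 1 at 98.2 and 97.1 CPM per kb, while Atf3 goes from rank 4 to rank 10.

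Upstream of ATF4, the other eIF2 kinases did not move alike. These kinases are named here for their role, after their values were seen. Eif2ak2, the interferon-inducible kinase PKR, was higher, at 15.6, 13.8 and 15.0 CPM against 47.4, 60.3 and 55.5 CPM (3.67-fold, adjusted p = 4.82e-12). Eif2ak4, the amino acid sensor GCN2, fell 1.28-fold and Eif2ak1, the haem-regulated kinase HRI, fell 1.37-fold. Per length, Eif2ak3 was the most abundant of the 4 kinases under both labels, at 41.9 and 23.2 CPM per kb, with Eif2ak1 at 9.21 and 6.71, Eif2ak4 at 6.37 and 4.98, and Eif2ak2 at 2.89 and 10.6 CPM per kb. In the list of 15 genes for these kinases, their regulators, eIF2 and its exchange factor eIF2B, 10 fell, 2 rose and 3 were not called (median log2 difference -0.46), where 37.0% of all tested genes fell and 37.9% rose. Impact, an inhibitor of GCN2 activation, fell 5.75-fold from 178 ± 4.87 to 31.0 ± 2.31 CPM. Dnajc3, which inhibits eIF2 kinases, fell 3.34-fold and the eIF2B subunit Eif2b2 2.75-fold, while Eif2s3x, the gamma subunit of eIF2, rose 1.27-fold.

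Of 34 genes known as ATF4 targets outside the 10, 33 were tested, with 21 lower, 10 higher and 2 not called, and in 8 the fall came to 1 or more on the log2 scale. Over all tested genes 37.0% fell, 37.9% rose and 14.2% fell that far. The median log2 difference of the targets was -0.44, against -0.0119 over all tested genes. The largest falls were those of the arginine transporter Slc7a3, on at most 10 counts per VprBP-labelled library (4.87 ± 0.440 against 0.320 ± 0.246 CPM), the stress hormone Fgf21 and the stress-induced chromatin protein Nupr1. Fgf21 stood at 27.7, 29.5 and 29.6 CPM against 2.43, 3.83 and 2.66 CPM, a fall of 9.70-fold (adjusted p = 6.34e-13). Nupr1 stood at 151, 149 and 152 CPM against 18.8, 18.2 and 19.5 CPM, with SDs of 1.57 and 0.651 CPM (adjusted p = 1.06e-17). In the other direction, the mTORC1 inhibitor Ddit4 rose 2.01-fold, the serine synthesis enzyme Phgdh 1.85-fold and the bZIP repressor Jdp2 1.73-fold. Asparagine synthetase, Asns, singled out after its values were seen as a standard ATF4 target, fell 1.13-fold from 339 ± 5.36 to 299 ± 6.76 CPM (adjusted p = 0.000663), where Atf4 itself fell 3.37-fold. That call was lost without TMM factors, at a log2 difference of -0.07 (adjusted p = 0.156).

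Of 8 tested genes tied to CHOP or to stress-induced death, 4 were lower and 4 higher (median log2 difference -0.33), an even split like that of all tested genes (37.0% lower, 37.9% higher). The endoplasmic reticulum co-chaperone Dnajb9 fell 12.3-fold, the growth arrest gene Gadd45a 3.24-fold and the death receptor Tnfrsf10b 2.05-fold. Txnip, an inhibitor of thioredoxin, rose 2.94-fold, the pro-death BCL2 relative Bcl2l11 2.41-fold and the survival gene Bcl2 2.05-fold. Ero1l, an oxidase of the endoplasmic reticulum, was the other that rose, from 2510 ± 66.3 to 3223 ± 111 CPM.

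The other arms of the unfolded protein response fell alongside. Of 24 tested genes of the ATF6 and IRE1-XBP1 arms, 22 fell, 1 rose and 1 was not called, 18 fell with a log2 difference of -1 or lower, and the median log2 difference was -1.67. The shares over all tested genes were 37.0% lower, 37.9% higher and 14.2% at -1 or lower. The chaperone Hspa5, with the stress proteins Creld2 and Sdf2l1, fell most, at 13.2-fold, 11.5-fold and 10.7-fold, and Mbtps1, the protease that starts ATF6 activation, rose 2.87-fold. Dnajc3, Herpud1, Jdp2, Cebpg, Atf6 and Atf6b each stand in more than 1 list. The sensors themselves, chosen for their role after their values were seen, fell as well, Atf6 by 1.79-fold and the IRE1 gene Ern1 by 2.99-fold, and the splicing target of IRE1, Xbp1, by 3.72-fold.

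**Figure D4:**
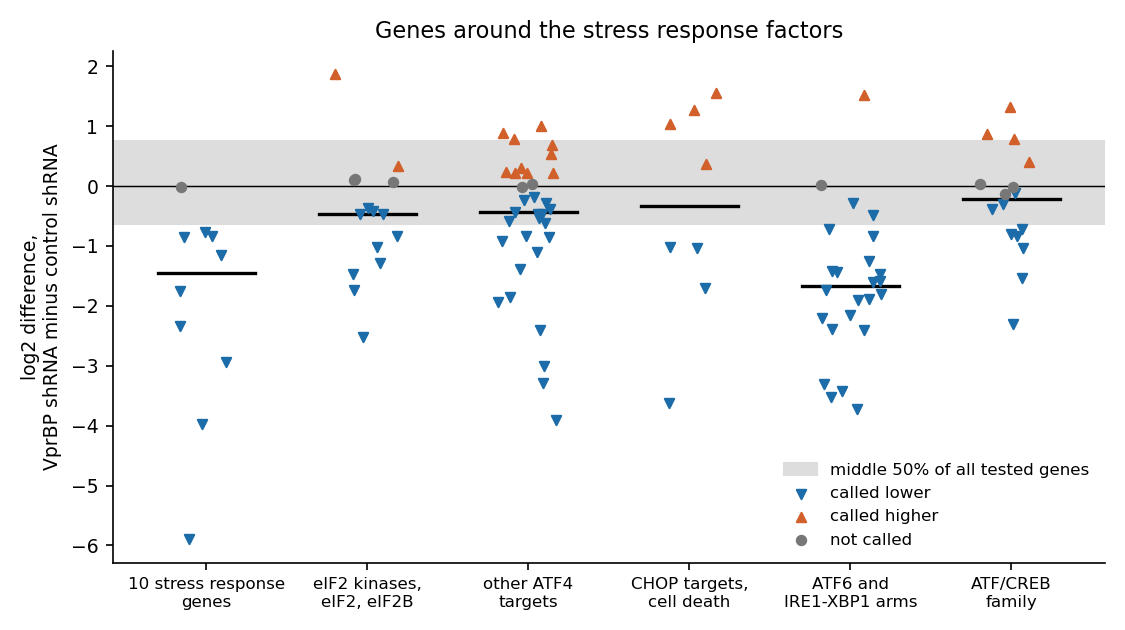
Log2 difference (VprBP-labelled minus control-labelled) of every tested gene in 6 lists, by call, with a line at each list's median and a band over the 25th to 75th percentiles of all tested genes. The medians of the 10 stress response genes (-1.45) and of the ATF6 and IRE1-XBP1 arms (-1.67) lie below the band, those of the other 4 lists within it.

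Among relatives of the 10 genes, Cebpd, an inducible C/EBP factor, rose 17.0-fold, from 6.70, 7.87 and 7.46 CPM to 141, 122 and 110 CPM (adjusted p = 1.76e-16), while Cebpb fell. Per length Cebpd stood at 1.96 and 33.2 CPM per kb and Cebpb at 103 and 46.3 CPM per kb. Cebpg, a partner of ATF4, fell 1.36-fold and Cebpz 1.66-fold, Cebpa has no row and Cebpe had too few counts to be tested. Of 16 genes of the ATF and CREB family, 9 fell, 4 rose and 3 were not called, so that 13 of 16 were called where 75.0% of all tested genes were. Creb3, a factor held in the endoplasmic reticulum membrane, fell 4.92-fold, Crem 2.89-fold and Atf1 2.04-fold, and Creb3l1 rose 2.51-fold and Atf7 1.83-fold. Trib1 rose 2.37-fold and Trib2 4.33-fold, where Trib3 fell, although both were scarce, at 6.95 ± 1.14 against 16.5 ± 0.243 CPM for Trib1 and 0.855 ± 0.320 against 3.73 ± 0.504 CPM for Trib2. Chac2, the relative of Chac1, was not called (3.83 ± 1.37 and 3.78 ± 0.624 CPM, log2 difference -0.03, SE 0.27).

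Of 9 tested genes of mitochondrial protein quality control, the setting in which ATF5 is known, 6 fell and 3 rose (median log2 difference -0.38), beside 37.0% and 37.9% of all tested genes. The protease subunit Clpp fell 3.46-fold, the chaperonin partner Hspe1 3.27-fold and the co-chaperone Dnaja3 1.57-fold. Oma1, the protease that relays mitochondrial stress to eIF2 kinases, rose 1.87-fold from 8.02 ± 1.19 to 14.9 ± 1.66 CPM, the chaperone Hspa9 1.29-fold and Hspd1 1.10-fold. For Hspd1 the groups overlapped, at 389, 373 and 361 CPM against 388, 426 and 424 CPM (edgeR adjusted p = 0.0115). The 13 protein-coding mitochondrial transcripts, 13 of 13 lower, summed to 88733 to 98043 CPM under the control label against 46086 to 52433 CPM under the VprBP label.

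Markers of another cell type differed between the labels as well. Of 8 fibroblast and stromal markers 6 have a row, and they summed to 47.3 to 50.3 CPM under the control label against 366 to 419 CPM under the VprBP label, most of it Col1a1 (14.9 ± 1.07 and 302 ± 28.1 CPM). Of the 5 tested, 4 were higher and 1 lower, where 37.9% of all tested genes were higher and 37.0% lower. Pdgfra rose 4.38-fold and Pdgfrb 2.01-fold, while Dcn fell from 2.70 to 1.26 CPM (log2 difference -1.10, adjusted p = 0.00855). Lum and Col3a1 were at 0 under the control label, and Col1a2 and Thy1 have no row. The part of these transcripts, of the mitochondrial share and of the cell makeup in the falls of the 10 genes was not tested.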

How the data were processed

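Per the labels' protocols, an RNeasy kit was used for extraction and SMARTer chemistry for the libraries. The authors deposited an expected count (estimated count) per gene, not scaled between libraries. Partek and build mm10 are named, per the submitters' processing notes. For the aligner, counter and strand setting, the sources used here give nothing, so reads of overlapping genes cannot be told apart.

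After rounding to whole numbers, the test was the one of edgeR 4.0.16 under R 4.3.3 (quasi-likelihood F test, TMM scaling, filterByExpr, group as the only term), with Benjamini-Hochberg adjustment over all 14641 tested genes and a threshold of 0.05. The SE is the size of the log2 difference divided by the root of F. Folds come from the edgeR log2 difference and need not equal the ratio of printed means. The script was tested on simulated data in which few genes changed. That test cannot check the scaling here, where 75.0% of tested genes were called. Alternatives included DESeq2 1.42.0. Of 18908 gene IDs, 18501 matched GENCODE M21 with version and coordinates, which gave exon lengths. No replicate pair agreed within sampling noise (chi-square per degree of freedom 3.15 to 6.04). Named genes were the 10 genes, Dcaf1, and in each list the 3 largest called differences in each direction, with exceptions marked in the text. The mitochondrial transcripts are given only as a count and a sum. A list of 8 osteoclast markers, of which 4 have a row and 1 was tested, is not described. Levels of overlapping genes and list counts under other scalings were added after seeing the data. The genes and lists were chosen with earlier results of these data known.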

Additional observations from a re-analysis of the deposited data

How the results depend on the processing

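The count of 9 lower and 0 higher genes among the 10 was the same under all 16 alternatives, which changed the scaling, the filter, the rounding, the test or the threshold, blocked on the replicate number or left out 1 library. Over these, Atf3 ranged from -6.04 to -5.75, Ppp1r15a from -4.03 to -3.87, Ddit3 from -2.97 to -2.82, Chac1 from -2.42 to -2.22 and Atf4 from -1.78 to -1.64 on the log2 scale. The highest adjusted p of any of the 9 was 0.000276, for Trib3 against a 1.5-fold change. Atf5 changed sign at 0.10 with library size only, and at 0.02 without control replicate 3 and without VprBP replicate 2, with -0.06 as the lowest value when 1 library was left out, and was never called (adjusted p 0.0849 to 1). That scaling shifted all genes by a median of 0.12, and Dcaf1 to -0.12 (adjusted p = 0.137). Tested against a 1.5-fold change, Dcaf1 at -0.24 was not called either, and 6127 genes were called in place of 10974, by the construction of that test. The replicate numbers are not said to pair libraries, and same-numbered libraries correlated at -0.079 to 0.018 in their deviations from the group means. With the replicate block 10649 genes were called and no call among the 10 genes or Dcaf1 changed. Under the other scalings the median of 1 list changed sign, that of the pigment cell markers (-0.01 to 0.13). Some list counts moved too. In the ATF and CREB family 7 to 10 genes were lower, and among the other ATF4 targets 9 to 12 were higher. The list of eIF2 kinases, eIF2 and eIF2B had 4 genes higher with library size only, in place of 2. With 1 library left out, the log2 difference of the within-library ratio of Ppp1r15a to Ppp1r15b ran from -3.30 to -3.11. Ddit3 to Atf4 ran from -1.21 to -1.16, Atf3 to Atf4 from -4.32 to -3.99 and Trib3 to Ddit3 from 2.03 to 2.19. With 3 libraries a group such shifts always stay below the SD between libraries, so staying below it is no check. With 3 libraries a group, an exact test of a single value cannot go below 0.1.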
